A study of Mus musculus with 3 samples.

Results

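Padi2, Popdc2, Pgm5, Bc1 and Nrxn3 are 5 genes outside the contractile apparatus that were higher in the KO+FLAG-Drp1 library than in the KO library. They were picked for high ratios in that comparison, with no stated cutoff, and are 5 of 46316 gene symbols in the tables. The values of that ratio therefore describe how the genes were chosen and support nothing further. RNA was measured in C2C12, a line of immortal mouse myoblasts whose cells fuse into myotubes with many nuclei, and every library was taken at day 4 of myogenic differentiation. The KO+FLAG-Drp1 library came from Drp1 knockout cells that transiently expressed FLAG-tagged Drp1, the KO library from Drp1 knockout cells, and the WT library from wild-type cells. Drp1 is the GTPase that divides mitochondria and is encoded by Dnm1l. Each group had 1 library, so no difference below has a replicate check, and each statement describes these 3 libraries.

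The 5 genes have unrelated products. Padi2 encodes a calcium-dependent protein arginine deiminase, which converts arginine residues of proteins to citrulline. Popdc2 encodes a Popeye domain protein, a cAMP-binding membrane protein best known from heart and skeletal muscle. Pgm5 encodes aciculin, a relative of phosphoglucomutase without its enzyme activity that is found at cell adhesion sites and binds dystrophin, utrophin and filamin C in muscle. Nrxn3 encodes a neurexin, a presynaptic adhesion protein that binds neuroligins and other ligands across the synapse. Bc1 is a short noncoding RNA of rodents, made by RNA polymerase III, abundant in neurons and known there as a repressor of translation.

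The Bc1 transcript is shown because its length sets it apart from the other 4 genes, whose runs of A were not counted. The deposited row of Bc1 is 154 bases long, and the first 154 bases of the GENCODE M21 transcript, which is annotated at 168 bases on chromosome 7, are printed below. Capitals mark runs of 8 or more A.
Bc1 RNA: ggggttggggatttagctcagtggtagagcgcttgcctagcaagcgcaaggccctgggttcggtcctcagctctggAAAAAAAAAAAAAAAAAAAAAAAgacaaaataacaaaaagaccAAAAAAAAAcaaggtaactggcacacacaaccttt
The 154 printed bases held 2 such runs, the longer of 23 bases, and 42.2% of them were A.

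The upstream sequences of Popdc2, Pgm5 and Nrxn3 are shown because these genes were 2-fold or more lower in KO than in WT and 2-fold or more higher in KO+FLAG-Drp1 than in KO. They are the 250 bases before the gene start in RefSeq's GRCm38.p6 promoter table, whose build differs from the GRCm39 of the count tables. Windows from 250 bases before to 50 after the start were searched on both strands for the E-box CANNTG, the MCAT motif CATTCC, the MEF2 motif and the CArG box, and capitals mark the matches. For Nrxn3 the start is the third in the table, that of the counted row.
Popdc2, chr16:38361940-38362189, plus strand: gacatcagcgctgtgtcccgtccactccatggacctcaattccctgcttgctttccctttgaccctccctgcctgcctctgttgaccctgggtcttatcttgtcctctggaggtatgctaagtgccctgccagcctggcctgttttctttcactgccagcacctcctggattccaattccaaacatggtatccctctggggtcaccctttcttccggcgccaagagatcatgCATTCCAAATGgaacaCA
Pgm5, chr19:24861843-24862092, minus strand: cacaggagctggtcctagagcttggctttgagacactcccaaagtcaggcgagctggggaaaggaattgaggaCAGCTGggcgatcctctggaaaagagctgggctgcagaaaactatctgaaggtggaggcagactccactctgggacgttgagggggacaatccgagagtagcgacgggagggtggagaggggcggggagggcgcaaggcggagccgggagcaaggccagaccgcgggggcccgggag
Nrxn3, chr12:89812233-89812482, plus strand: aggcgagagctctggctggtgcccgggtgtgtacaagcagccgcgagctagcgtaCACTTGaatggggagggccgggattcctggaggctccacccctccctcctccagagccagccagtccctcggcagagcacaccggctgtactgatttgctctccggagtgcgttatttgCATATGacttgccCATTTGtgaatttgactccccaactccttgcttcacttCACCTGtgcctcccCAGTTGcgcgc
The Popdc2 window held the MCAT letters at position -18 from the start. They overlapped an E-box by 1 base, and a further E-box ran past the printed end. The Pgm5 window held 1 E-box, at position -177, and the printed Nrxn3 window held 5, between positions -195 and -11. Of the other Nrxn3 starts in the table, the first held no match and the second held 1 E-box, and since the transcript rows of Nrxn3 share reads, their counts do not show which start was used. The Bc1 window held E-boxes at positions -70 and -15, and no motif was matched in the Padi2 window. Of the 32851 windows in the table, 72.3% held an E-box, 14.7% an MCAT motif, 3.19% the MEF2 motif and 1.63% a CArG box, and 2.1% held 5 or more E-boxes. A match is a run of letters and says nothing here about binding.

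Reads were counted per RefSeq transcript and 1 row was used per gene. Gene counts summed to 13925296 in KO+FLAG-Drp1, 13790417 in KO and 13894114 in WT. Counts were scaled between libraries with TMM factors, and CPM below are the values after that scaling. Ratios are on the log2 scale after adding 0.5 to each count, and their 95% intervals cover counting error only. Of all genes, 13381 had a mean of 1 CPM or more and were kept for comparison, including all 5 members, whose values chose them and could also have carried them past this filter. Dnm1l had 1481 counts in KO+FLAG-Drp1, 1284 in KO and 1823 in WT, so its RNA was still present in the library labelled KO. In KO+FLAG-Drp1 it was 1.16-fold higher than in KO and 1.21-fold lower than in WT, so these counts show little added Dnm1l RNA. Whether they include RNA of the FLAG-tagged Drp1 was not tested. The 10 myotube markers moved with the members in part. All 10 were higher in KO+FLAG-Drp1 than in KO, with a median log2 ratio of 0.39, beside 0.0029 over all genes kept. In KO over WT, 7 of the 10 were lower, and the median of the 10 was -0.31, beside 0.0005 over all genes kept. Among the 10 markers, 1 was 2-fold or more higher in KO+FLAG-Drp1 than in KO, beside 1.3% of the genes kept. The same marker was the only 1 at 2-fold or more lower in KO than in WT, beside 4.07%. It was Ckm, muscle creatine kinase, with 3527 counts in KO+FLAG-Drp1, 1424 in KO and 4406 in WT. Its log2 ratios were 1.31 in KO+FLAG-Drp1 over KO (interval 1.22 to 1.40) and -1.60 in KO over WT (interval -1.69 to -1.52). Atp2a1, the calcium pump of fast fibres, Mylpf, a fast myosin light chain, and Tnnt1, slow troponin T, had ratios of 0.45, 0.69 and 0.80 in KO+FLAG-Drp1 over KO and of -0.88, -0.51 and -0.37 in KO over WT. Myog, Acta1 and Myh3 were instead higher in KO than in WT. The summed CPM of the 10 was 21826 in KO+FLAG-Drp1, 16925 in KO and 17419 in WT, and none was at 0. Other marker lists had medians of 0.35 (neuron), 0.32 (cardiac muscle), 0.30 (smooth muscle) and -0.14 (oligodendrocyte and Schwann cell) in KO+FLAG-Drp1 over KO. The 5 myoblast markers kept had a median of 0.00042 there. All 5 were lower in KO than in WT, with a median of -0.55. The part of these marker differences in the members' ratios was not tested.

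All 5 genes were more than 3-fold higher in KO+FLAG-Drp1 than in KO, but they differed in how KO and WT compared. Popdc2, Pgm5 and Nrxn3 were at least 2-fold lower in KO than in WT. Padi2 was lower in KO by less than 2-fold, and Bc1 was higher in KO than in WT. In KO+FLAG-Drp1 against WT, Popdc2 was close to WT, Pgm5 and Nrxn3 were below it, and Padi2 and Bc1 were above it. Among the genes kept, 1.3% were 2-fold or more higher in KO+FLAG-Drp1 than in KO and 0.575% lower, and 0.306% and 0.0374% had the whole counting interval beyond 2-fold. All 5 members were among the higher ones by both measures, and nothing is read from this because the choice used that ratio. In KO over WT, which shares the KO library with it, 3 of the 5 were 2-fold or more lower, beside 4.07% of the genes kept, and none was 2-fold or more higher, beside 5.35%. The same 3 had the whole interval beyond 2-fold, beside 2.02% lower and 2.62% higher among the genes kept. In KO+FLAG-Drp1 over WT, 2 of the 5 were 2-fold or more higher, beside 4.59%, and 1 was 2-fold or more lower, beside 3.06%. The whole interval lay beyond 2-fold for Padi2 and Bc1, beside 2.19% higher, and not for Pgm5, beside 1.39% lower. In bulk samples such as these, fewer cells of a type and less RNA per cell cannot be told apart. The comparisons share libraries in pairs and are not independent of each other or of the choice of members.

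**Figure D1:**
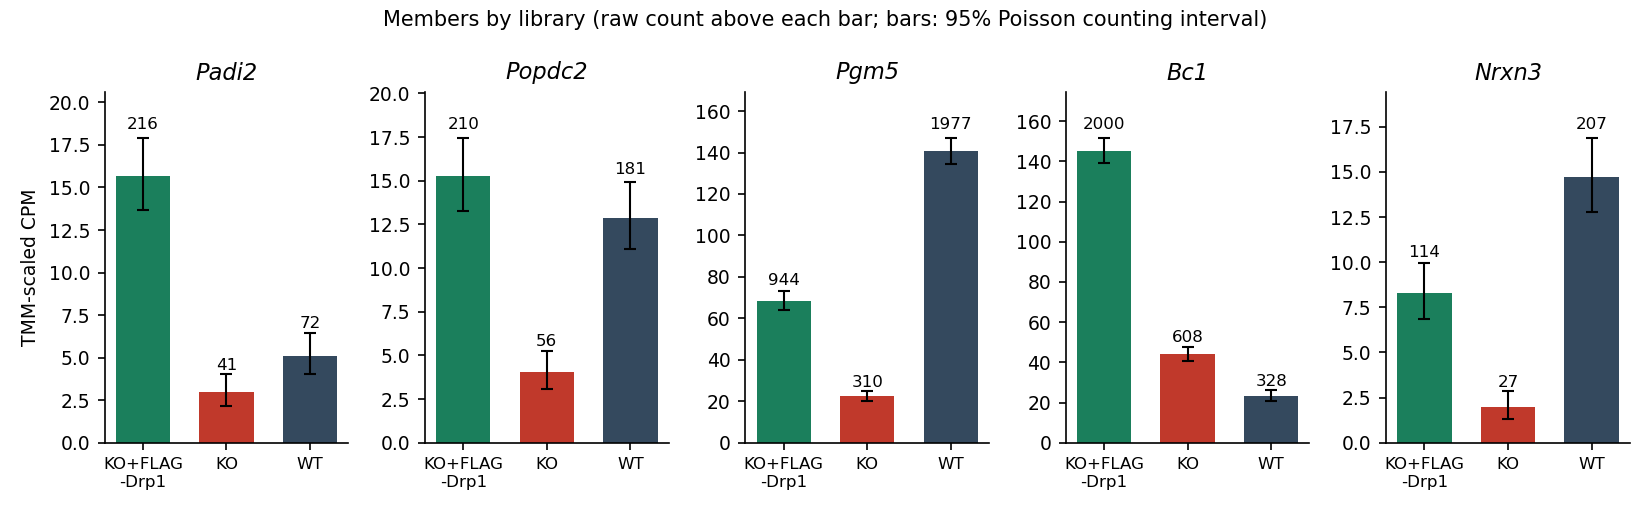
Level of each gene in the KO+FLAG-Drp1, KO and WT libraries, 1 library per group, as CPM after TMM scaling on a linear axis from 0. Error bars are exact 95% Poisson counting intervals and the raw count stands above each bar. KO is the lowest library for Padi2, Popdc2, Pgm5 and Nrxn3, while for Bc1 the WT library is the lowest.

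Popdc2 had 210 counts in KO+FLAG-Drp1, 56 in KO and 181 in WT. The KO library was the low one, and the other two were close, the interval of their ratio including 0. Its log2 ratio was 1.90 in KO+FLAG-Drp1 over KO (interval 1.48 to 2.36), a 3.73-fold difference. It was -1.66 in KO over WT (interval -2.13 to -1.23), and 0.24 in KO+FLAG-Drp1 over WT (interval -0.05 to 0.54). The 5 transcript rows of Popdc2, of 1657 to 2255 bases, had 177 to 210 counts in KO+FLAG-Drp1, 43 to 56 in KO and 154 to 181 in WT, and their log2 ratios in KO+FLAG-Drp1 over KO ran from 1.90 to 2.03. The genes beside it in the table order, Cox17 and Pla1a, had log2 ratios of 0.31 and 0.20 in KO+FLAG-Drp1 over KO.

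The other Popeye genes differed far less between libraries. Popdc3 had 4919 counts in KO+FLAG-Drp1, 4355 in KO and 5060 in WT, and Bves, the founding Popeye gene, had 2778 counts in KO+FLAG-Drp1, 2987 in KO and 3366 in WT. Popdc3 was also lowest in KO, but by a log2 ratio of 0.18 in KO+FLAG-Drp1 over KO (interval 0.12 to 0.24) and -0.19 in KO over WT (interval -0.25 to -0.13). Per kilobase, Popdc3 stood at 193 CPM and Bves at 43.8 CPM in KO+FLAG-Drp1, beside 7.21 CPM for Popdc2, so Popdc2 was the least abundant of the 3. Of the 10 other genes of a list of Popeye relatives and of membrane and cAMP partners, none was 2-fold different in KO+FLAG-Drp1 over KO, and their median log2 ratio was 0.05, beside 0.0029 over all genes kept. In KO over WT, 2 of these 10 were 2-fold or more higher, beside 5.35% of the genes kept, and 1 was lower, beside 4.07%. Rapgef3, the cAMP-activated exchange factor Epac1, had 140 counts in KO+FLAG-Drp1, 173 in KO and 48 in WT. Pde4a, a cAMP phosphodiesterase, had 126 counts in KO+FLAG-Drp1, 179 in KO and 80 in WT. Cav3, muscle caveolin, which binds Popeye proteins, had 4 counts in KO+FLAG-Drp1, 2 in KO and 160 in WT. Cav3 was thus near 0 in the KO+FLAG-Drp1 library, in which Popdc2 was close to its WT level. Popdc2 is also a heart gene, and of 8 cardiac muscle markers Nppa was at 0 in all 3 libraries. Of the 6 markers kept, 1 was 2-fold or more higher in KO+FLAG-Drp1 than in KO, beside 1.3% of the genes kept. It was Myh6, with 555 counts in KO+FLAG-Drp1, 249 in KO and 263 in WT. The summed CPM of the 8 was 3289 in KO+FLAG-Drp1, 2159 in KO and 2453 in WT, most of it from Actc1 and Tnnt2. These 2 had log2 ratios of 0.74 and 0.43 in KO+FLAG-Drp1 over KO. Gata4, Nkx2-5 and Tnni3 had ratios of -0.01, 0.02 and 0.22 there. The part of these markers in the Popdc2 ratio was not tested.

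Pgm5 had 944 counts in KO+FLAG-Drp1, 310 in KO and 1977 in WT. The 3 libraries were well apart, with KO+FLAG-Drp1 in the middle. Its log2 ratio was 1.61 in KO+FLAG-Drp1 over KO (interval 1.42 to 1.80) and -2.65 in KO over WT (interval -2.82 to -2.47), a 6.26-fold difference. In KO+FLAG-Drp1 over WT it was -1.04 (interval -1.15 to -0.93), so Pgm5 stayed 2.05-fold below WT. It has a single transcript row of 7981 bases. The genes annotated within its span had at most 5 counts in any library.

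The 4 other phosphoglucomutase genes stayed within 0.20 of 0 on the log2 scale in KO+FLAG-Drp1 over KO. Pgm1, the main phosphoglucomutase of muscle, had 1354 counts in KO+FLAG-Drp1, 1181 in KO and 1748 in WT, and its KO over WT log2 ratio was -0.54 (interval -0.65 to -0.43). Pgm2, Pgm2l1 and Pgm3 had KO over WT ratios between -0.15 and 0.07. None of the 4 was 2-fold different in any of the 3 comparisons.

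A list of 17 genes covered PGM5 partners and adhesion at costameres, the sites that tie sarcomeres to the cell membrane. In KO+FLAG-Drp1 over KO, 1 of the 17 was 2-fold or more higher, beside 1.3% of the genes kept, and none was lower, beside 0.575%. That gene was Dmd, dystrophin, with 53 counts in KO+FLAG-Drp1, 14 in KO and 42 in WT. Its log2 ratio was 1.89 in KO+FLAG-Drp1 over KO (interval 1.05 to 2.89) and -1.53 in KO over WT (interval -2.55 to -0.66). Across its 19 transcript rows the ratio in KO+FLAG-Drp1 over KO ran from 0.49 to 2.38. Over these 17 genes the median log2 ratio was -0.0025 in KO+FLAG-Drp1 over KO and -0.19 in KO over WT, beside 0.0029 and 0.0005 over all genes kept. Flnc, filamin C, had 15334 counts in KO+FLAG-Drp1, 18614 in KO and 16997 in WT. Utrn, utrophin, had 3534 counts in KO+FLAG-Drp1, 4223 in KO and 3959 in WT, and Xirp1, an actin-binding Xin protein, had 2524 counts in KO+FLAG-Drp1, 2204 in KO and 1822 in WT. Flnc, Utrn and Xirp1 thus each stayed within 1.5-fold between libraries, unlike Pgm5 and Dmd. Other genes of the 17 lay further below WT. Dag1 was 1.62-fold lower in KO than in WT. Tln2 and Sgcd were 1.82-fold and 1.83-fold lower in KO+FLAG-Drp1 than in WT.

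**Figure D2:**
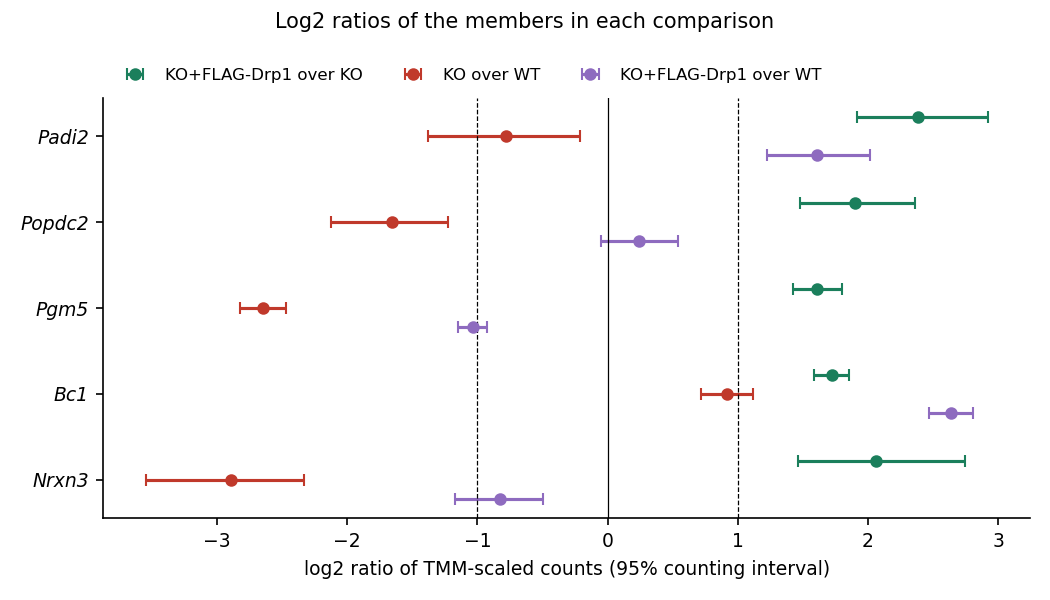
Log2 ratios of the 5 genes in KO+FLAG-Drp1 over KO, KO over WT and KO+FLAG-Drp1 over WT, with 95% counting intervals and dashed lines at 2-fold. All KO+FLAG-Drp1 over KO ratios lie between 1.61 and 2.39, whereas those of KO over WT run from -2.89 for Nrxn3 to 0.91 for Bc1.

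Nrxn3 had 114 counts in KO+FLAG-Drp1, 27 in KO and 207 in WT. As for Pgm5, the KO+FLAG-Drp1 library lay between the others. The log2 ratio was 2.06 in KO+FLAG-Drp1 over KO (interval 1.47 to 2.74), -2.89 in KO over WT (interval -3.55 to -2.33) and -0.83 in KO+FLAG-Drp1 over WT (interval -1.18 to -0.50). The KO over WT difference was 7.41-fold, and Nrxn3 ranked 84 from the bottom of the 13381 genes kept.

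Nrxn3 has 53 transcript rows of 5146 to 9461 bases. Their counts ran from 99 to 114 in KO+FLAG-Drp1, from 22 to 27 in KO and from 172 to 207 in WT. The shortest row, transcript variant 3, had the highest count in each library. The rows of transcript variants 1 and 2 had 105 and 100 counts in KO+FLAG-Drp1, 23 and 22 in KO and 184 and 172 in WT. The ratio in KO+FLAG-Drp1 over KO stayed between 2.06 and 2.17 over all 53 rows. An overlapping noncoding gene, Gm40537, had 1 count in KO+FLAG-Drp1 and 0 in the others.

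Nrxn2, another neurexin gene, had 1 count in KO+FLAG-Drp1, 0 in KO and 0 in WT. Of 23 genes for neurexins, their ligands and scaffolds, 5 reached a mean of 1 CPM. For the 4 besides Nrxn3 the median in KO+FLAG-Drp1 over KO was -0.16 on the log2 scale, and none was 2-fold different. Dag1, dystroglycan, which binds neurexins and anchors muscle membrane to laminin, had 6797 counts in KO+FLAG-Drp1, 6662 in KO and 10997 in WT. Nlgn2, a neuroligin, had 1350 counts in KO+FLAG-Drp1, 1555 in KO and 1189 in WT. Lrrtm4, another neurexin ligand, had 22 counts in KO+FLAG-Drp1, 26 in KO and 0 in WT.

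Because Nrxn3 and Bc1 are best known from neurons, 11 neuronal markers were read beside them. Rbfox3, the nuclear antigen NeuN, and Snap25, a presynaptic fusion protein, were at 0 in all 3 libraries. Syt1, a synaptic vesicle calcium sensor, had 5 counts in KO+FLAG-Drp1, 1 in KO and 18 in WT. Of the 7 markers at 1 CPM or more, none was 2-fold different in KO+FLAG-Drp1 over KO, and their median log2 ratio was 0.35. In KO over WT, 3 of the 7 were 2-fold or more lower, beside 4.07% of the genes kept, and 1 was higher, beside 5.35%. The higher one was Stmn2, with 992 counts in KO+FLAG-Drp1, 844 in KO and 330 in WT, the order of libraries seen for Bc1. Gap43, a growth cone protein, had 77 counts in KO+FLAG-Drp1, 52 in KO and 374 in WT, and Nefm, a neurofilament, had 25 counts in KO+FLAG-Drp1, 16 in KO and 172 in WT. The summed CPM of all 11 was 228 in KO+FLAG-Drp1, 202 in KO and 290 in WT.

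Padi2 had 216 counts in KO+FLAG-Drp1, 41 in KO and 72 in WT. The KO+FLAG-Drp1 library was the high one, and the KO and WT libraries were closer to each other. Its log2 ratio was 2.39 in KO+FLAG-Drp1 over KO (interval 1.91 to 2.92), a 5.23-fold difference and number 15 from the top of the genes kept. It was -0.78 in KO over WT (interval -1.38 to -0.21), and 1.61 in KO+FLAG-Drp1 over WT (interval 1.22 to 2.02), or 3.05-fold above WT. The 2 transcript rows of Padi2 had equal counts in each library. The genes annotated within its span had 0 counts.

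No other arginine deiminase gene was measurable. Padi1 and Padi6 were at 0 in every library, and Padi3 and Padi4 had at most 3 counts. Padi2 is also an enzyme of myelinating glia, and of 8 markers of oligodendrocytes and Schwann cells Mag and Mog were at 0 in all 3 libraries. Sox10 had 0 counts in KO+FLAG-Drp1, 1 in KO and 1 in WT. The summed CPM of the 8 was 24.3 in KO+FLAG-Drp1, 22.3 in KO and 27.6 in WT, most of it from Cnp.

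Bc1 had 2000 counts in KO+FLAG-Drp1, 608 in KO and 328 in WT. All 3 libraries were apart beyond counting error, and the order differed from that of the other genes, with WT the lowest. Its log2 ratio was 1.72 in KO+FLAG-Drp1 over KO (interval 1.59 to 1.85), 0.91 in KO over WT (interval 0.72 to 1.11) and 2.63 in KO+FLAG-Drp1 over WT (interval 2.47 to 2.81). The last of these was a 6.21-fold difference. Bc1 stands alone in its row, but short repeats related to it occur across rodent genomes, and the handling of reads that match several places is not stated in the labels, so its count is uncertain. The neighbouring gene LTO1 had 207 counts in KO+FLAG-Drp1, 206 in KO and 291 in WT.

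Other RNA polymerase III transcripts did not show the difference of Bc1 between KO+FLAG-Drp1 and KO. How fully the libraries captured these short RNAs was not tested. Besides Bc1, 5 of them reached 1 CPM, and their median log2 ratio was -0.28 in KO+FLAG-Drp1 over KO, with none 2-fold different. In KO over WT, all 5 were above 0 and 3 were 2-fold or more higher, beside 5.35% of the genes kept. Rpph1, the RNA of ribonuclease P, had 189 counts in KO+FLAG-Drp1, 261 in KO and 93 in WT, and Rmrp, the RNA of the related enzyme RNase MRP, had 69 counts in KO+FLAG-Drp1, 101 in KO and 42 in WT. Rn7s1, a signal recognition particle RNA, had 90 counts in KO+FLAG-Drp1, 98 in KO and 32 in WT, and Rn7s2, another such gene, had 74 counts in KO+FLAG-Drp1, 90 in KO and 60 in WT. Near-identical copies make the split between Rn7s1 and Rn7s2 uncertain. Rn7sk, the RNA that holds the elongation factor P-TEFb inactive, had 438 counts in KO+FLAG-Drp1, 467 in KO and 352 in WT. In KO+FLAG-Drp1 over WT, Bc1 and all 5 others were above 0, and 2 of the 5 were 2-fold or more higher, beside 4.59% of the genes kept. Bc1 thus lay on the same side of WT as these RNAs in both the KO and KO+FLAG-Drp1 libraries. It differed from them in KO+FLAG-Drp1 over KO, the ratio by which it was chosen.

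**Figure D3:**
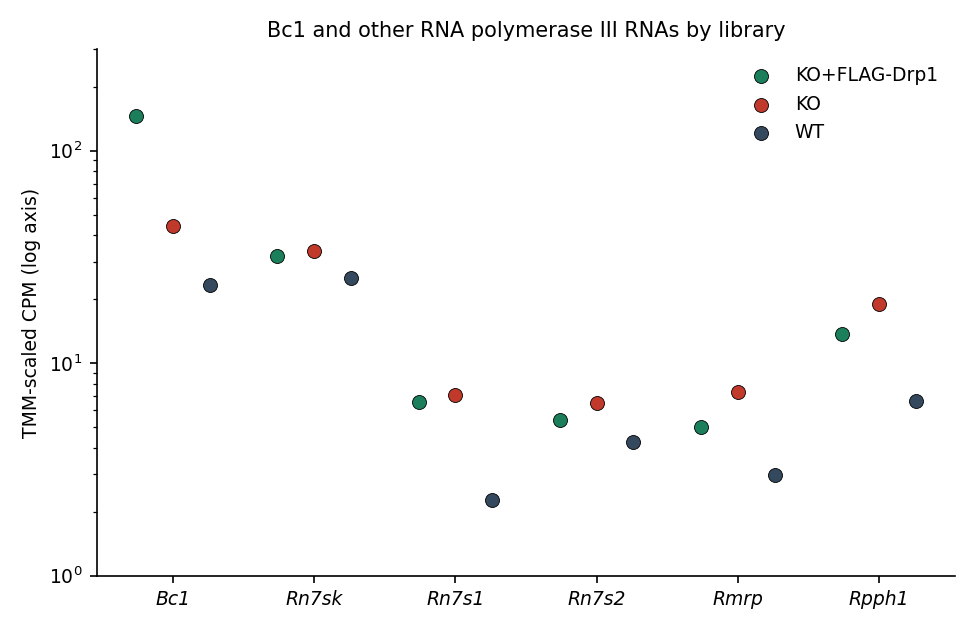
CPM after TMM scaling, on a log axis, of Bc1 and 5 other RNA polymerase III RNAs in the KO+FLAG-Drp1, KO and WT libraries. Bc1 is highest in KO+FLAG-Drp1, whereas the 5 other RNAs have their highest point in KO and their lowest in WT.

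Bc1 was also set beside other short transcripts. The 178 other genes kept with rows of 200 bases or shorter had a median of 0.0029 on the log2 scale in KO+FLAG-Drp1 over KO. Of these 178, 6 were 2-fold or more higher, beside 1.3% of all genes kept, and 6 were lower, beside 0.575%. Both were larger shares than over all genes kept. Among the 36 of these with 100 or more counts in a library, none was 2-fold different, and the ratios ran from -0.89 to 0.85. With the trend on transcript length subtracted, the Bc1 ratio was 1.58. Of 9 genes for proteins that bind Bc1 RNA, none was 2-fold different in any comparison. Fmr1, the fragile X protein, had 1306 counts in KO+FLAG-Drp1, 1490 in KO and 1188 in WT, and Pabpc1, the poly(A)-binding protein, had 26422 counts in KO+FLAG-Drp1, 29599 in KO and 20205 in WT.

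**Figure D4:**
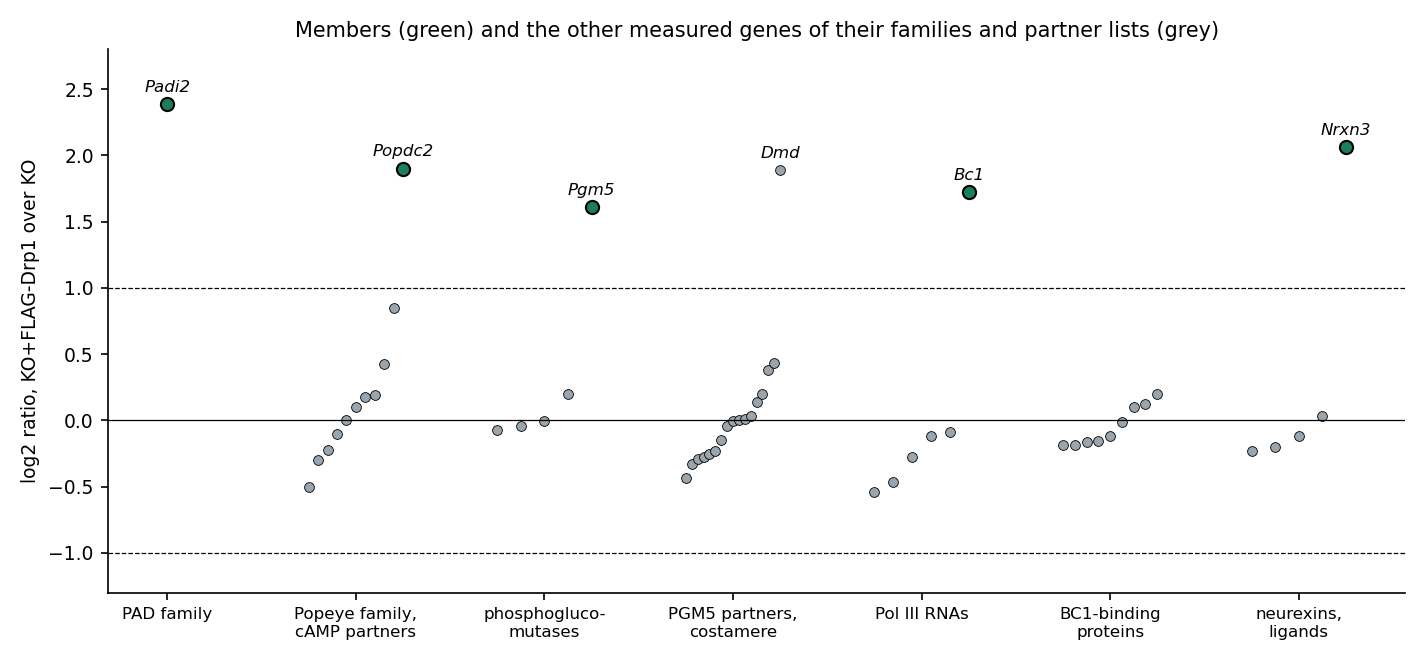
Log2 ratios in KO+FLAG-Drp1 over KO of the 5 genes (green) and of the other genes at 1 CPM or more in their family and partner lists (grey), with dashed lines at 2-fold. Dmd, at 1.89, is the only grey point beyond 2-fold.

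Per kilobase of transcript, the levels in KO+FLAG-Drp1 were 943 CPM for Bc1, 8.59 for Pgm5, 7.21 for Popdc2, 3.24 for Padi2 and 1.61 for Nrxn3. Bc1 lay at percentile 99.6 of the genes kept on this scale, and the 4 others lay at percentiles 15.8 to 48.6. The scale divides by row length, which is 154 bases for Bc1 and 7981 for Pgm5. Before that division Bc1 had 145 CPM and Pgm5 68.6 CPM in KO+FLAG-Drp1. The Bc1 level also carries the uncertainty of its count. The counting intervals of Pgm5 (8.05 to 9.16) and Popdc2 (6.27 to 8.25) overlapped, and the other neighbours in this order were separate. In WT the order was Bc1, Pgm5, Popdc2, Nrxn3 and Padi2, at 152, 17.6, 6.09, 2.86 and 1.06 CPM per kilobase. In KO+FLAG-Drp1 over KO the log2 ratios ordered the genes as Padi2, Nrxn3, Popdc2, Bc1 and Pgm5, and every pair of neighbours in that order had overlapping counting intervals.

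The genes stood at ranks 15 to 59 of 13381 in KO+FLAG-Drp1 over KO. The genes directly above and below them in that ranking included Lctl (2.40) and Epn3 (2.37) around Padi2, Tac4 (1.93) and Dmd (1.89) around Popdc2, and Myh7b (1.62) and Gdf5 (1.59) around Pgm5. Hspb3 (1.73) and Limch1 (1.71) stood around Bc1, and Xpnpep2 (2.07) and Slc5a5 (2.04) around Nrxn3. All of these neighbours but Slc5a5 and Myh7b had fewer than 100 counts in every library.

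**Figure D5:**
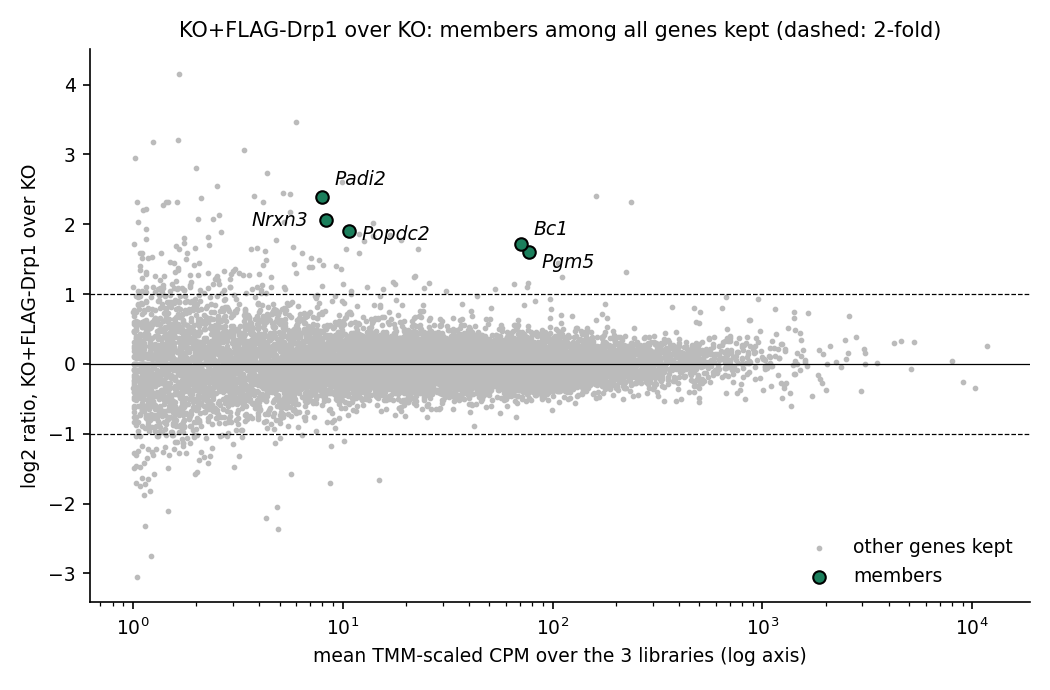
Log2 ratio in KO+FLAG-Drp1 over KO against the mean CPM over the 3 libraries (log axis) for the 13381 genes kept (grey) and the 5 genes (green), with dashed lines at 2-fold. The 5 genes were chosen by the ratio on the vertical axis.

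The genes most like each member were sought among named genes with 100 or more counts in a library, by distance in the plane of the log2 ratios of KO over WT and KO+FLAG-Drp1 over KO, which rests on 3 libraries. For Popdc2 these were Nmrk2, a muscle nicotinamide riboside kinase (distance 0.12), Pgam2, the muscle glycolytic mutase (0.13), and the iodide transporter gene Slc5a5 (0.20). For Pgm5 they were Fbxo40, a muscle F-box gene (0.18), Actn2, a sarcomeric alpha-actinin (0.21), and Myh7b, a slow myosin (0.25). For Nrxn3 they were Myh8, the neonatal myosin (0.30), Fbxo40 (0.39) and Myh1, the fast IIx myosin (0.42). Padi2 was nearest to Casq1, which encodes the calcium buffer calsequestrin (0.24), and then to Ly6g2 (0.62) and the small heat shock gene Hspb7 (0.84).

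The gene nearest to Bc1 was Srrm4os, a noncoding RNA, at a distance of 0.09. It had 108 counts in KO+FLAG-Drp1, 34 in KO and 19 in WT. The next were Sohlh2 (0.75) and Tceal5 (0.76), both farther away. Among the members themselves, Pgm5 and Nrxn3 were the closest pair (0.51), and Bc1 and Nrxn3 the farthest apart (3.82). The members thus shared the ratio they were chosen by, and spread widely in their position relative to WT.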

How the data were processed

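RNA of differentiated C2C12 cells was sequenced in 3 libraries, 1 per group, from TRIzol extracts with a DNBSEQ-G400RS kit, per the labels' protocols. The submitters' processing notes name featureCounts 2.0.0, HISAT2 2.2.1, cutadapt 1.9.1 and the build GRCm39 (mm39). Neither their settings nor strand use were given in the sources used here, so reads of a gene and of an antisense partner cannot be told apart. The deposited count column holds whole read counts for 139023 RefSeq transcript rows, per the file headers. The RPKM and TPM columns deposited by the authors were recomputed from count and length to within 4.98e-06 and 4.4e-06, and were not used further.

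Judged from the values, transcript rows of a gene share reads, so the row with the highest count summed over the libraries stood for a gene. Scaling between libraries used TMM factors from edgeR 4.0.16 under R 4.3.3 (0.989 for KO+FLAG-Drp1, 1.00 for KO and 1.01 for WT). Log2 ratios used 0.5 added to each count, with exact conditional Clopper-Pearson 95% counting intervals computed with scipy 1.17.1. The labels record no molecular identifiers, so reads may include PCR copies and the intervals take in counting error and nothing else. With 1 library per group there was no test and no p-value, and 2-fold stood in for a call. The ratio and interval code was tested on simulated counts. DESeq2 1.42.0 size factors were an alternative.

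The members, the 7 family and partner lists and the 6 marker lists were chosen with earlier results of these data known. The text names the members, genes of their families, list genes at 2-fold in KO+FLAG-Drp1 over KO, and other list genes chosen after their values were seen, the 3 genes nearest each member in pattern, and the genes beside it in rank and in the tables. Of the lists' 130 entries, 129 matched a symbol in the tables. A gene of these lists is not reported here by name. The marker lists of smooth and cardiac muscle and of myoblasts had median log2 ratios of 0.30, 0.32 and 0.00042 in KO+FLAG-Drp1 over KO. All 5 members had a promoter window in the RefSeq table of GRCm38.p6.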

Additional observations from a re-analysis of the deposited data

How the results depend on the processing

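With 1 library per group, these ratios have no replicate check, and no paired analysis was possible because no group has a second library. The 15 member ratios were recomputed under 6 alternatives, giving 90 values, and none changed sign. Of these, 89 stayed within the counting interval of the reported ratio. The exception was Bc1 in KO+FLAG-Drp1 over KO, at 1.58 with the length trend subtracted, and the cause was not tested. Without the low-count filter, the genes 2-fold or more higher and lower numbered 2862 and 2412 in KO+FLAG-Drp1 over KO, 3331 and 3606 in KO over WT, and 3431 and 3292 in KO+FLAG-Drp1 over WT, since many genes of a few counts enter. Summing all transcript rows gave 110 higher and 48 lower in KO+FLAG-Drp1 over KO, against 174 and 77 with 1 row per gene, and the cause was not tested. Depth limits Nrxn3 and Padi2 most, with 27 and 41 counts in KO.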
